A study of Mus musculus with 19 samples.

Results

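Selenium-binding and selenoprotein genes were described in mouse liver with and without the RNA-binding protein RALY. Their 9 members, Selenbp1, Selenbp2, Gpx1, Gpx3, Gpx4, Dio1, Txnrd2, Sephs2 and Secisbp2, were taken by symbol from a table of 24054 genes, and each of the 9 was found. All 9 had a mean value of at least 1 over the livers and were among the 11580 genes tested. They were selected with the difference between these same livers known, so that difference is given for them as a description and is no test of the set.

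Selenoproteins carry selenocysteine, a cysteine-like residue with selenium in place of sulphur, which the ribosome inserts at a UGA codon that would otherwise end translation. The insertion needs a stem-loop in the messenger RNA, SECISBP2, which binds that stem-loop, and selenophosphate, which SEPHS2 makes. The liver takes selenium from the diet into glutathione peroxidases, thioredoxin reductases and a deiodinase, and exports it as selenoprotein P. SELENBP1 and SELENBP2 bind selenium but contain no selenocysteine, and SELENBP1 is a methanethiol oxidase.

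All mice were male Raly flox/flox animals on chow diet with a C57BL/6 background. The knockout mice (L-RalyKO) received AAV8.TBG.Cre, an adeno-associated virus that expresses Cre recombinase from the hepatocyte promoter TBG, and the controls, which the labels call wild type, received AAV8.TBG.GFP. The virus was injected into the peritoneum and livers were collected about a month later, and the age of these mice was not given in the sources used here. Whole-liver RNA of 3 mice of each group was analysed here, so cells in which TBG is silent kept the floxed gene and also contributed RNA. The values, called scaled reads here, are reads per gene scaled to a common library size (TMM-scaled CPM), and they are not divided by transcript length. Recovered reads ranged from 28302983 to 38052705 per liver, and a gene with 3 reads had between 0.0789 and 0.105 scaled reads. Raly itself had 6.34, 6.61 and 7.39 scaled reads in the L-RalyKO livers and 50.1, 48.6 and 46.8 in the controls, a log2 fold change of -2.67 (SE 0.0689, adjusted p = 6.92e-07, limma). No marker of hepatocytes, Kupffer cells, endothelial cells or stellate cells was called between the groups (0 of 6 in each list, limma), where limma called 6.55% of all genes tested. Of these 24 genes, 3 had an unadjusted p under 0.05, as had 2632 of all 11580 genes tested. All 6 hepatocyte markers had a log2 fold change above 0, and their sum was 94804 to 95928 scaled reads in the L-RalyKO livers and 85026 to 94207 in the controls, without overlap. Alb, the largest part of that sum, overlapped, with 71897 in control replicate 2 and at most 70819 in an L-RalyKO liver. By gene the groups did not overlap in 2 of the 6, beside 28.1% of all genes tested.

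Of the 9 genes, 6 have an in-frame TGA inside the coding sequence of their annotated transcript, and the other 3 (Selenbp1, Selenbp2 and Secisbp2) have none. The sequences around these selenocysteine codons are shown because they are what makes a selenoprotein gene, with the TGA in capitals, read 5′ to 3′ on the coding strand of GENCODE vM1 transcripts on NCBIM37 (mm9).
Gpx1: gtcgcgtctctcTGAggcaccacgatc
Gpx3: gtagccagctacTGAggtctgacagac
Gpx4: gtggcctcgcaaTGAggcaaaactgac
Dio1: ggcagttgcaccTGAccttcatttctt
Txnrd2: gtgactggttgcTGAggctaa
Sephs2: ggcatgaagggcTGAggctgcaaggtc
The codon of Gpx1 is number 47 of 202, in exon 1 of 2 at chr9:108241782-108241784. In Gpx3 it is number 73 of 227, in exon 2 of 5 at chr11:54720758-54720760, and in Gpx4 it is number 73 of 198, in exon 3 of 7 at chr10:79517482-79517484. These 3 genes encode glutathione peroxidases, which reduce peroxides with glutathione. The codon of Dio1 is number 126 of 258, in exon 2 of 4 at chr4:106970305-106970307 on the minus strand. In Sephs2 it is number 63 of 453, in the only exon, at chr7:134417245-134417247 on the minus strand. Txnrd2 differs from the others in the place of the codon, which is number 523 of 525 in exon 17 of 18 at chr16:18477865-18477867, with 1 codon between it and the stop.

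Selenbp1 and Selenbp2 are neighbouring copies on the plus strand of chromosome 3. Selenbp2 lies at chr3:94497478-94508335 and Selenbp1 at chr3:94736978-94748680 of NCBIM37, 228642 bases apart. Both have 12 exons and a coding sequence of 1419 bases, in which 18 bases differ (98.7% identical) and 17 of 473 codons differ. The stretch of coding bases 391 to 450, in exon 5 of each gene (Selenbp1 at chr3:94741907-94741966 and Selenbp2 at chr3:94501995-94502054), is shown because a read over it can be told apart, with the 4 differing bases in capitals.
Selenbp1: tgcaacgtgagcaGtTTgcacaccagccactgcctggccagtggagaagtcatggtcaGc
Selenbp2: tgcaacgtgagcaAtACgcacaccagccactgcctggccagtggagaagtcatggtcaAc
Elsewhere the copies are alike over up to 193 coding bases. Of all runs of 50 bases in the Selenbp1 transcripts, 48.0% also occur in Selenbp2 transcripts, and of those in Selenbp2, 45.5% occur in Selenbp1. At 150 bases, the read length of the paired-end run in the methods, the shares were 5.42% and 5.21%. How the authors' counting placed reads that fit both copies is not given in the sources used here. The split between Selenbp1 and Selenbp2 is uncertain to the extent of such reads. None of the other 7 genes shared a run of 50 bases with another coding gene, and pseudogenes were not compared.

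Selenbp2 was higher in the liver without RALY, and it was the only one of the 9 genes called. It had 469, 325 and 435 scaled reads in the L-RalyKO livers and 89.7, 157 and 103 in the controls. Control replicate 1, the lowest, stood apart in its reads from controls 2 and 3, with a chi-square per degree of freedom of 71.1 and 84.3. This chi-square was 18.2 between controls 2 and 3, and 12.6 to 27.4 between L-RalyKO livers. The lowest L-RalyKO liver was above the highest control, and the groups did not overlap. The means were 410 ± 75.0 and 117 ± 35.9 scaled reads (SD, n = 3), a ratio of 3.52. The log2 fold change was 1.83 (SE 0.202, 95% interval 1.37 to 2.29). These values rest on 11217 to 16543 reads per L-RalyKO liver and 3010 to 4488 per control liver. In whole liver, more RNA per cell and more cells that contain it cannot be told apart. Among the 11580 genes tested, limma called 6.55% in either direction at an adjusted p under 0.05, 3.36% as higher and 3.19% as lower in L-RalyKO liver. Under total-count scaling the 389 higher and 369 lower calls became 324 and 469. Since these genes were selected on the same livers, nothing is read from 1 call among 9 beside that share.

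Marker lists of scarcer cells are given beside the difference in Selenbp2. The summed 4 cholangiocyte markers had 6.85 to 8.35 scaled reads in the L-RalyKO livers and 4.62 to 5.93 in the controls, without overlap. Of these, Krt19 and Krt7 were below the minimum, and Epcam and Sox9 were tested and not called (Sox9 log2 fold change 0.55, SE 0.157, adjusted p = 0.0774, limma). The summed 5 lymphocyte markers had 6.21 to 8.74 and 8.05 to 10.1, and the summed 5 erythroid markers 686 to 1358 and 706 to 1182, with no gene called among the 1 and 5 tested. The summed 6 adipocyte markers had 5.60 to 5.99 scaled reads in the L-RalyKO livers and 7.85 to 20.7 in the controls. One of the 2 adipocyte markers tested was called, Cfd (complement factor D), with 0.204, 1.10 and 0.132 scaled reads against 12.6, 2.74 and 3.46 (log2 fold change -2.10, SE 0.452, adjusted p = 0.0318, limma). Lep and Retn had reads in control replicate 1 alone, and Adipoq and Plin1 stayed at or under 0.119 in every liver. The part of such cells in the values of Selenbp2 was not tested.

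Selenbp1 did not follow its copy. It had 307, 336 and 273 scaled reads in the L-RalyKO livers and 293, 305 and 283 in the controls. The groups overlapped, with both the highest and the lowest liver in the L-RalyKO group. The means were 306 ± 31.3 and 294 ± 10.7 scaled reads (SD, n = 3), with a log2 fold change of 0.05 (95% interval -0.12 to 0.22). Its sign turned without L-RalyKO replicate 2, where the log2 fold change was -0.02.

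**Figure D1:**
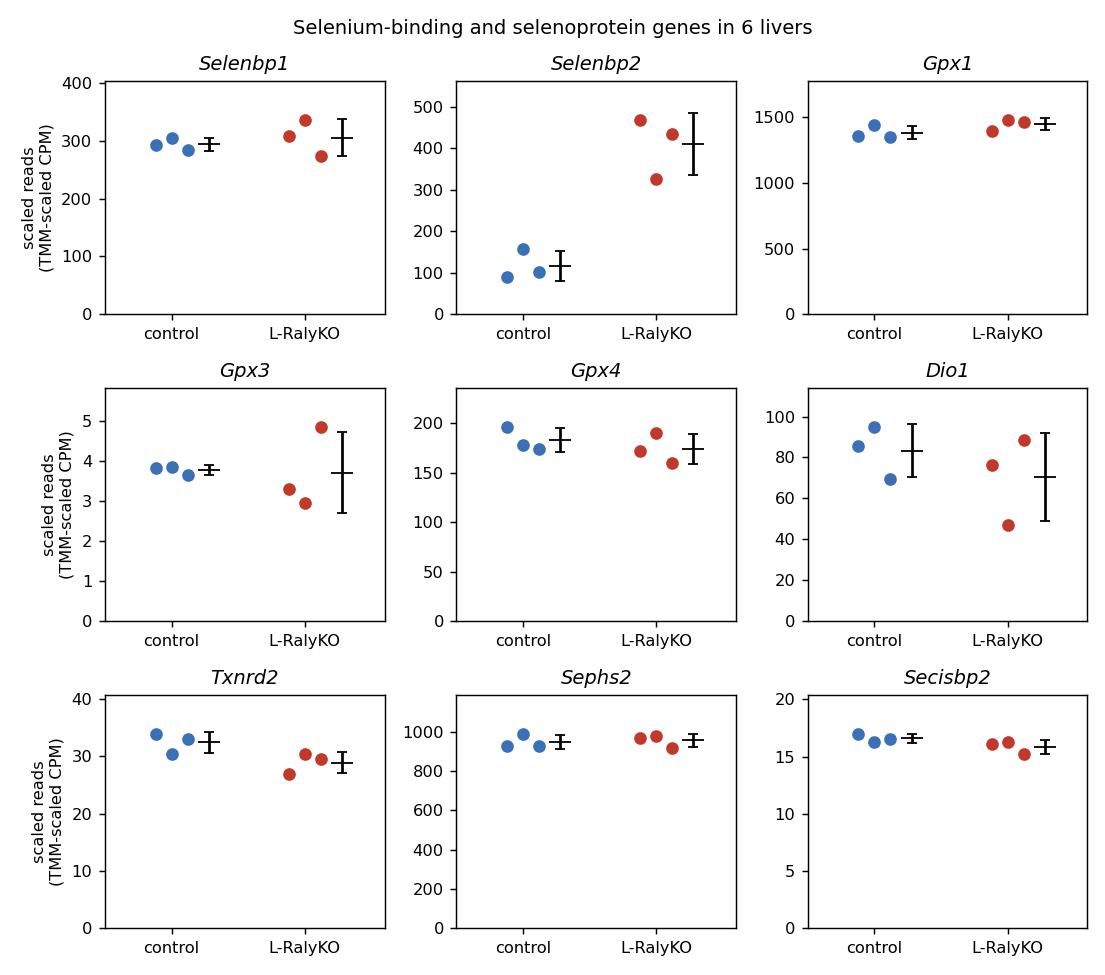
Scaled reads (TMM-scaled CPM, linear axes from 0) of each of the 9 genes in the 3 control (blue) and 3 L-RalyKO (red) livers, with the mean and SD of each group in black beside its points. The groups are apart in Selenbp2 and overlap in the other 8 genes, and 1 L-RalyKO liver is low for Dio1 and another is high for Gpx3.

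The pair can also be read as 1 sum, which does not depend on how shared reads were divided between them, only on whether they were counted. Selenbp1 and Selenbp2 together had 776, 661 and 709 scaled reads in the L-RalyKO livers and 383, 462 and 386 in the controls. The groups of sums did not overlap, and the log2 fold change of the sum was 0.80. The transcripts are 1712 and 1719 bases long, so the copies can be set side by side. Selenbp2 divided by Selenbp1 was 1.53, 0.969 and 1.59 in the L-RalyKO livers and 0.306, 0.517 and 0.362 in the controls. Selenbp2 made up 57.0% ± 6.78 of the sum in L-RalyKO liver and 28.0% ± 5.46 in control liver (SD, n = 3). The liver with the lowest ratio of its group, L-RalyKO 2, had about equal amounts of the copies, and the control with the highest ratio, control 2, still had more Selenbp1.

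**Figure D2:**
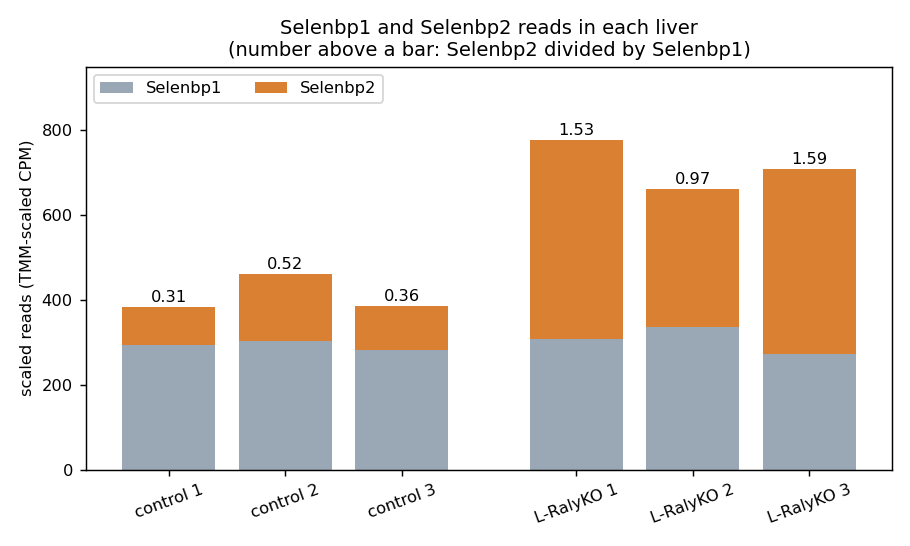
Stacked scaled reads (TMM-scaled CPM, linear axis from 0) of Selenbp1 (grey) and Selenbp2 (orange) in each liver, with the ratio of Selenbp2 to Selenbp1 printed above each bar. The grey parts are of similar height in all 6 livers (273 to 336), and the orange parts range from 89.7 to 157 in the controls and from 325 to 469 in the L-RalyKO livers.

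Selenbp2 also varied more within groups than most genes. Its coefficient of variation was 30.8% among the controls, where the median gene had 6.70%, and 97.2% of genes tested varied less. Among the L-RalyKO livers it was 18.3%, beside a median of 6.25%. Leaving out 1 liver at a time, its log2 fold change lay between 1.66 (without control replicate 1) and 2.07 (without control replicate 2).

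The start regions of the pair are shown because the copies differed in their values. They are RefSeq windows of GRCm38.p6, another build than that of the coordinates above, from 250 bases before to 50 bases after the annotated start, on the plus strand, with CCAAT on either strand in capitals. The motif CCAAT, which reads ATTGG on the other strand, is the core of the site of NF-Y, a trimeric transcription factor that the study examined as a partner of RALY.
Selenbp1 at chr3:94932833-94933132: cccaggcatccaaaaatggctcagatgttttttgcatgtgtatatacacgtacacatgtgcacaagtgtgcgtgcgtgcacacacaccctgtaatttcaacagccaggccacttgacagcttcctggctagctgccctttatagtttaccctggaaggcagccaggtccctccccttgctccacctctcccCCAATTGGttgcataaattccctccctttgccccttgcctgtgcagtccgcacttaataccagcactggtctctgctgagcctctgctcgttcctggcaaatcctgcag
Selenbp2 at chr3:94693323-94693622: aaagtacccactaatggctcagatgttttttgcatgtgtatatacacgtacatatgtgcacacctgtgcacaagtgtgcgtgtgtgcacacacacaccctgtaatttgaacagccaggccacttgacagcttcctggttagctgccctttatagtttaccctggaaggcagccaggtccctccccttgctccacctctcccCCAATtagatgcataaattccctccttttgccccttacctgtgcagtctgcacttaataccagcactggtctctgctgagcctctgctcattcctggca
Over 288 aligned bases 272 were identical (94.4%), with 12 further bases in gaps. The Selenbp1 window holds CCAAT once on each strand, overlapping, and the Selenbp2 window holds it once, on the plus strand. CCAAT on either strand was in 37.4% of all 32851 windows of that length and in 7 of the 12 windows of the 9 genes, of which Gpx4 has 4. By gene, Selenbp1, Selenbp2, Gpx3, Gpx4 and Sephs2 had it in a window. A match of these letters describes the sequence and shows no binding.

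The glutathione peroxidases overlapped between the groups. Gpx1, the abundant cytosolic enzyme, had 1398, 1480 and 1466 scaled reads in the L-RalyKO livers and 1361, 1438 and 1352 in the controls. One control, replicate 2, lay among the L-RalyKO values, and the log2 fold change was 0.07 (95% interval -0.06 to 0.19). Gpx4, which reduces lipid peroxides within membranes, had 172, 190 and 160 scaled reads without RALY and 196, 178 and 173 in the controls. Its groups were interleaved, with a log2 fold change of -0.07 (95% interval -0.24 to 0.10). It was -0.14 without L-RalyKO replicate 2 and -0.01 without L-RalyKO replicate 3.

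Gpx3 encodes the secreted peroxidase of plasma, for which the kidney is the main source. It had 3.32, 2.96 and 4.87 scaled reads in the L-RalyKO livers and 3.84, 3.86 and 3.65 in the controls. The controls all lay between the lowest and the highest L-RalyKO liver, and the log2 fold change was -0.04 (95% interval -0.37 to 0.28). Gpx3 rested on 102 to 185 reads per liver. Its coefficient of variation was 3.08% among the controls and 27.3% among the L-RalyKO livers, and its log2 fold change was 0.07 without L-RalyKO replicate 2 and -0.21 without L-RalyKO replicate 3. Of 3 kidney proximal tubule markers, Umod and Slc22a6 had no read in any liver, and Slc34a1 had 1 read in L-RalyKO replicate 2 and 1 in control replicate 3. The part of adipocytes, whose markers are given above, in the value of Gpx3 was not tested.

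Dio1 encodes the deiodinase that turns thyroxine into the active hormone triiodothyronine. It had 76.3, 46.9 and 88.7 scaled reads in the L-RalyKO livers and 85.4, 95.0 and 69.4 in the controls. L-RalyKO replicate 2 was the lowest of all, and the other L-RalyKO livers lay within the range of the controls. The means were 70.6 ± 21.5 and 83.3 ± 12.9 (SD, n = 3), with a log2 fold change of -0.27 (95% interval -0.75 to 0.21). Without L-RalyKO replicate 2 the log2 fold change was -0.0055, and without L-RalyKO replicate 3 it was -0.46.

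Txnrd2, the thioredoxin reductase of mitochondria, had 26.8, 30.5 and 29.5 scaled reads in the L-RalyKO livers and 34.0, 30.4 and 33.0 in the controls. Control replicate 2 lay just under the highest L-RalyKO liver, so the groups overlapped by that liver. The log2 fold change was -0.16 (95% interval -0.32 to -0.0064), and Txnrd2 was not called after adjustment over all genes.

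Sephs2 and Secisbp2, which serve the making of all selenoproteins, varied little in both groups, with coefficients of variation between 2.28% and 3.94%. Sephs2, itself a selenoprotein, had 971, 982 and 919 scaled reads without RALY and 929, 993 and 927 in the controls. Its groups overlapped over nearly their whole range, and the log2 fold change was 0.01 (95% interval -0.12 to 0.14), with a sign that turned under total-count scaling (-0.02). Secisbp2 had 16.1, 16.3 and 15.2 scaled reads in the L-RalyKO livers and 17.0, 16.3 and 16.5 in the controls. Its highest L-RalyKO liver lay just above the lowest control, and the log2 fold change was -0.06 (95% interval -0.20 to 0.07).

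Over the 9 genes, 4 fold changes were above 0 and 5 below, with a median log2 fold change of -0.04 beside 0.0044 for all genes tested. The groups did not overlap in 1 of the 9, and they did not overlap in 28.1% of all genes tested. These counts describe genes that were selected on this comparison.

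Per kilobase of annotated transcript the 9 genes spanned nearly 3 orders of magnitude. In control liver Gpx1 was the highest, at 1633 ± 55.6 scaled reads per kilobase (SD, n = 3), followed by Sephs2 at 699 ± 27.5. The annotated Sephs2 model contains coding sequence alone, so its level per kilobase is overstated. Next came Gpx4 at 190 ± 12.7, Selenbp1 at 171 ± 6.22, Selenbp2 at 67.8 ± 20.9 and Dio1 at 49.3 ± 7.66. The lowest were Txnrd2 at 17.0 ± 0.990, Secisbp2 at 4.99 ± 0.114 and Gpx3 at 2.37 ± 0.0731. Only Selenbp2 and Dio1 overlapped among neighbours in this order.

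In L-RalyKO liver the order was the same but for Selenbp2, which moved from rank 5 to rank 3. Its level was 238 ± 43.6 scaled reads per kilobase, above the means of Gpx4 (181 ± 15.9) and Selenbp1 (178 ± 18.3). The ranges of Selenbp2 and Gpx4 overlapped, since L-RalyKO replicate 2 had 189 for Selenbp2 and 198 for Gpx4, and those of Gpx4 and Selenbp1 overlapped as well. All other neighbours were apart.

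**Figure D3:**
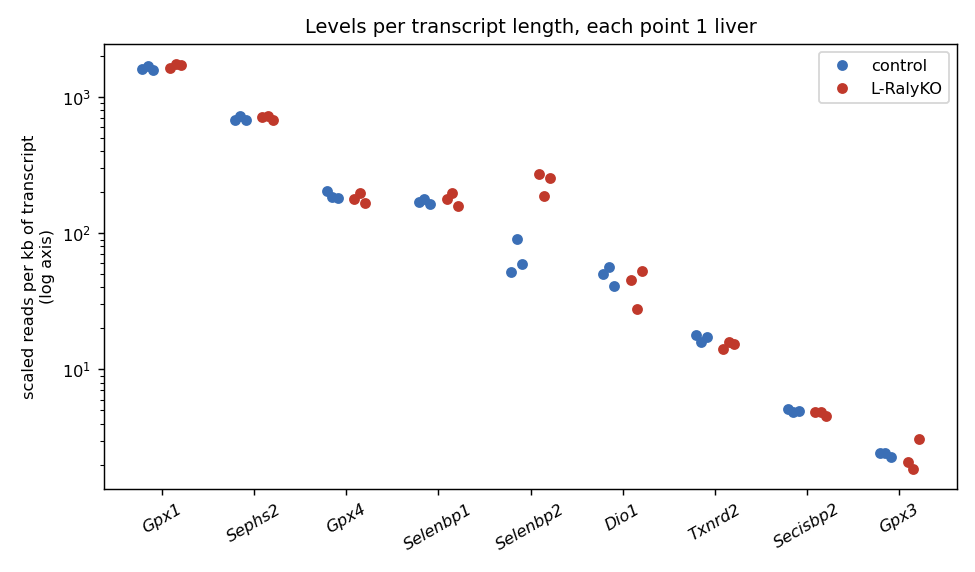
Scaled reads per kilobase of annotated transcript (log axis) of the 9 genes, ordered by their mean in control liver, with 1 point per control (blue) or L-RalyKO (red) liver. Levels run from about 2.37 for Gpx3 to 1633 for Gpx1 in control liver, and Selenbp2 is the gene whose red points stand apart above its blue ones.

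The genes whose values ran most like those of Selenbp2 over the 6 livers were Plk3, Btbd19 and Meg3, by the root mean square difference of centred log2(value + 1). Plk3, a stress-responsive kinase, differed by 0.249 and had 168, 150 and 128 scaled reads in the L-RalyKO livers and 35.6, 59.0 and 51.1 in the controls. Like Selenbp2 it was lowest in control replicate 1 and highest among controls in replicate 2. Btbd19 differed by 0.308, with 7.48, 8.62 and 6.50 scaled reads against 1.64, 2.74 and 1.68. Meg3, a maternally expressed long noncoding RNA, differed by 0.361, with 6.05, 3.60 and 5.53 against 1.55, 2.14 and 1.30. These likenesses are descriptions over 6 livers.

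Of 18 other selenoprotein genes in the list, 17 were found in the table and 13 were tested, while Dio2, Dio3, Gpx2 and Selenom were below the minimum and Dio2 had no read. None of the 13 was called by limma, edgeR or DESeq2, where limma called 6.55% of all genes tested, and 2 had an unadjusted p under 0.05 in limma, beside 2632 of all 11580. Their log2 fold changes ranged from -0.20 to 0.14 with a median of 0.05, and 10 were above 0. The groups did not overlap in 5 of the 13, with Msrb1, Selenop, Selenos and Selenot higher and Selenoi lower in L-RalyKO liver, beside 28.1% of all genes tested.

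Selenop and Selenoi are given in full and were picked after their values were seen. Selenop, the plasma protein by which the liver ships selenium to other organs, had 5886, 5889 and 6064 scaled reads in the L-RalyKO livers and 5281, 5515 and 5666 in the controls. Its log2 fold change was 0.12 (SE 0.0729, adjusted p = 0.388, limma). Per kilobase it stood above all 9 genes, with 2633 ± 93.0 in control liver (SD, n = 3). Selenoi, which has the lowest adjusted p of the list, had 51.2, 44.3 and 48.7 scaled reads against 55.3, 53.4 and 56.8 in the controls (log2 fold change -0.20, SE 0.0623, adjusted p = 0.103, limma). With the 6 selenoprotein genes among the 9 added, which were selected on these livers, 19 were tested and 0 called by limma, beside 6.55% of all genes tested, with a median log2 fold change of 0.02.

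The list of selenocysteine machinery holds 13 genes, for making, inserting and recycling selenocysteine and for the uptake of selenoprotein P. All 13 were found and 11 were tested, the uptake receptors Lrp8 and Lrp2 being below the minimum. None was called by limma, edgeR or DESeq2, where limma called 6.55% of all genes tested, 1 had an unadjusted p under 0.05 in limma, and log2 fold changes ranged from -0.14 to 0.03 with a median of 0.0055. The groups did not overlap in 2 of the 11, beside 28.1% of all genes tested, both lower in L-RalyKO liver, namely Secisbp2l, a paralog of Secisbp2, and Scly, which frees selenium from selenocysteine. They are named because the count is small.

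**Figure D4:**
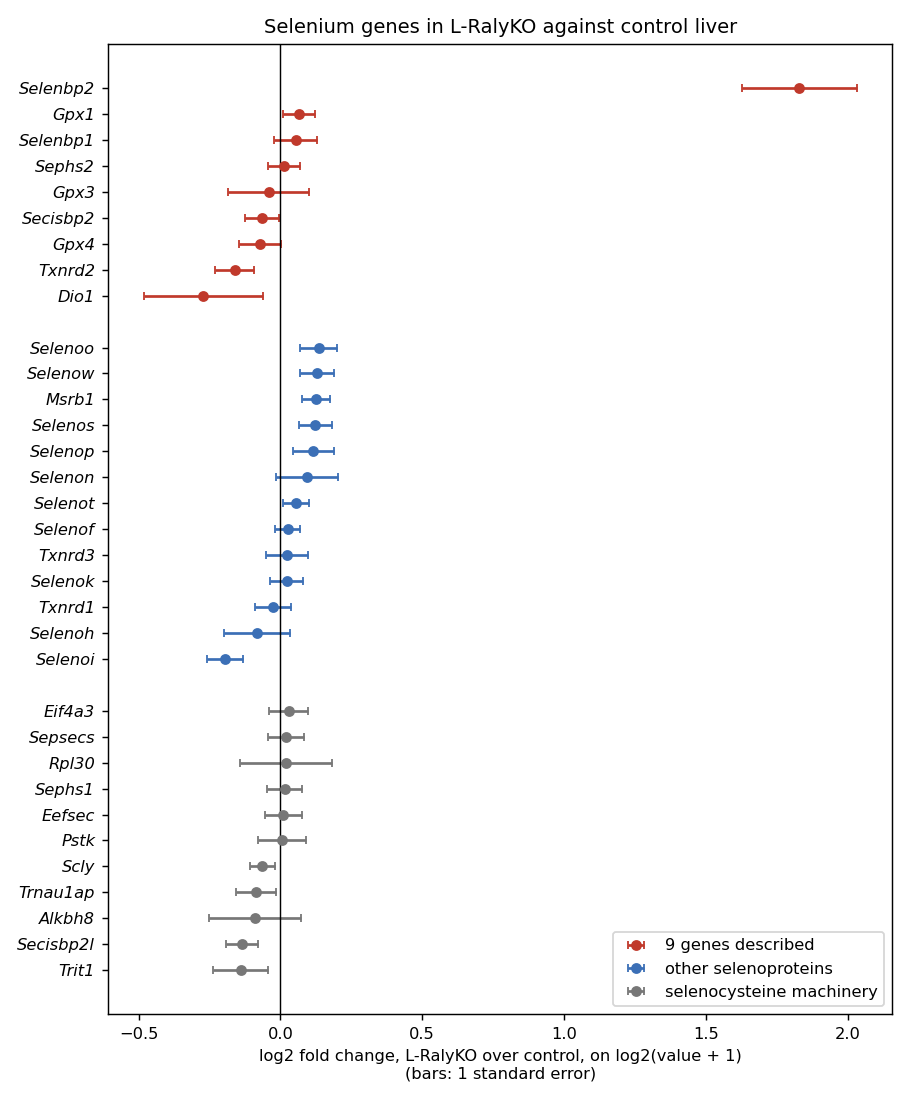
Log2 fold change of L-RalyKO over control liver on the log2(value + 1) scale, with bars of 1 standard error, for the 9 genes (red), the other selenoprotein genes tested (blue) and the selenocysteine machinery (grey). Selenbp2 lies at 1.83, and every other gene drawn lies between -0.27 and 0.14.

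Among 25 genes of thiol and peroxide metabolism that act beside the selenoproteins, 22 were tested and 1 was called, Prdx4, higher in L-RalyKO liver, beside 6.55% of all genes called. Log2 fold changes ranged from -0.11 to 0.49 with a median of 0.04, and 3 genes had an unadjusted p under 0.05, beside 2632 of all 11580. The highest value was that of Txnip, which encodes an inhibitor of thioredoxin and was picked after its values were seen. It had 336, 226 and 249 scaled reads in the L-RalyKO livers and 202, 192 and 177 in the controls, without overlap, and was not called (log2 fold change 0.49, SE 0.129, adjusted p = 0.0606, limma). Prdx4, the peroxiredoxin of the endoplasmic reticulum, had 59.9, 54.7 and 59.5 scaled reads in the L-RalyKO livers and 43.1, 48.9 and 44.3 in the controls. The groups did not overlap, and the log2 fold change was 0.35 (SE 0.0640, adjusted p = 0.0173, limma). The call depended on single livers, with an adjusted p of 0.0726 without L-RalyKO replicate 1, 0.0566 without L-RalyKO replicate 3 and 0.0627 without control replicate 1, and a range of 0.000627 to 0.0726 over all alternatives.

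Dio1 acts on thyroid hormone, and of 11 genes of thyroid hormone transport, binding and response 10 were tested, with 2 called higher, 1 called lower and a median log2 fold change of -0.08. Of all genes tested, 3.36% were called higher and 3.19% lower. Klf9, a transcription factor gene that responds to thyroid hormone and glucocorticoids, had 157, 157 and 154 scaled reads in the L-RalyKO livers and 89.5, 82.0 and 99.5 in the controls. Every L-RalyKO liver was above every control, and the log2 fold change was 0.79 (SE 0.0686, adjusted p = 0.000881, limma). Slc16a10, a transporter of aromatic amino acids and thyroid hormones, had 148, 129 and 119 scaled reads against 88.6, 98.8 and 102.

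The groups of Slc16a10 did not overlap, and the log2 fold change was 0.45 (SE 0.0846, adjusted p = 0.0185, limma). Its call was lost without L-RalyKO replicate 1 (adjusted p = 0.0515), L-RalyKO replicate 2 (0.0523) or control replicate 1 (0.0630), and the adjusted p ranged from 2.97e-05 to 0.0630 over the alternatives. Gpd2, the mitochondrial glycerol 3-phosphate dehydrogenase, had 57.0, 51.7 and 53.0 scaled reads in the L-RalyKO livers and 93.9, 74.6 and 72.6 in the controls. All L-RalyKO livers were below all controls, with a log2 fold change of -0.56 (SE 0.0943, adjusted p = 0.0120, limma). Dio1 itself overlapped between these groups, as given above.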

How the data were processed

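Liver RNA-seq of 3 L-RalyKO and 3 control mice was analysed, and the ATAC-seq and ChIP-seq libraries were not analysed here. The authors deposited a normalized signal per gene and liver, namely reads per gene divided by a TMM-scaled library size. All were whole multiples of 1 read (tolerance 0.001), so reads were recovered. The methods name TopHat on mm9 and Cufflinks 2.0.2, which give other values. Whether counting used strand is not given in the sources used here.

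A trended limma fit (3.58.1, in R 4.3.3) on log2(value + 1) covered the 11580 genes whose mean over the livers reached 1, and genes were called at a Benjamini-Hochberg adjusted p under 0.05. Fold changes on this scale understate those of low genes. The members and lists were chosen with earlier results of these data known. Beside the 9 members and Raly, the naming rule takes list genes with an adjusted p under 0.05 and the 3 genes most like Selenbp2. The other genes named (Selenop, Selenoi, Msrb1, Selenos, Selenot, Secisbp2l, Scly, Txnip and the marker genes) were picked after their values were seen. The alternatives were edgeR 4.0.16, DESeq2 1.42.0, total-count scaling, no filter, a pseudocount of 0.1, no trend, a replicate block, leaving out each liver, and, chosen after seeing the data, Selenbp1 and Selenbp2 summed. The fits with limma, edgeR and DESeq2 were tested on simulated data first. Intervals (95%) rest on 3 mice per group, where 0.1 is the smallest p of an exact permutation test. The labels number replicates and the methods name livers of mice, so each library was taken as 1 mouse.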

Additional observations from a re-analysis of the deposited data

How the results depend on the processing

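Of the 9 genes, which were selected on these livers, 1 was called under all 13 alternatives. No other selenoprotein gene and no gene of the selenocysteine machinery was called under any. Of all genes tested, limma called 6.55%. Over the settings that kept all livers, the log2 fold change of Selenbp2 lay between 1.80 and 1.84. Signs changed in some alternatives for Selenbp1 (1), Gpx3 (2) and Sephs2 (4), whose values lay near 0. Over all genes, 758 were called, 484 without the filter on low genes (which adds genes to the adjustment), 1088 by DESeq2, and 332 to 813 when 1 liver was left out, with 332, 437 and 491 without L-RalyKO replicates 1, 2 and 3 and 369 without control replicate 1. Of the thiol genes 1 was called, 2 by DESeq2, and 0 to 2 when 1 liver was left out, with 0 without L-RalyKO replicate 1, L-RalyKO replicate 3 or control replicate 1 and 2 without L-RalyKO replicate 2. The cause was not tested.

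The labels number the replicates of both groups. With the number as a replicate block 704 genes were called, 1 of the 9, 2 thiol genes and 4 thyroid hormone genes in place of 3. Deviations of same-numbered livers correlated at 0.07, -0.02 and 0.02, and those of different-numbered livers at -0.09 to 0.06. With so few livers these correlations cannot show whether the numbers pair the samples. With 3 livers per group, the intervals of Selenbp2, Dio1 and Gpx3 are wide. The values of Selenbp1 and Selenbp2 also depend on how shared reads were placed.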
